A study of Mus musculus with 6 samples.

Results

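The genes described here are those of the kinetic comparison of interleukin-4 (IL-4) in mouse eosinophils, which asked which IL-4 responses were early, sustained or late. For each gene the change with IL-4 at 4 h was set against the change at 1 h. The members were 10854 of the 22548 gene symbols in the deposited tables. They had a level of at least 1 FPKM (fragments counted per transcript, corrected for its length and the library's depth) in at least 1 of 4 libraries, with small RNA genes left out.

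Eosinophils were cultured for 14 days from low-density marrow cells of BALB/c wild-type mice aged 4 to 8 weeks. They grew with 100 ng/ml of both stem cell factor and FLT3 ligand up to day 4 and then with 10 ng/ml of IL-5, so both the IL-4 and the untreated cells were IL-5 cultures. The 4 groups were cells given 10 ng/ml IL-4 for 4 h, untreated cells at 4 h, cells given 10 ng/ml IL-4 for 1 h and untreated cells at 1 h. Each group was 1 library among the 6 of the series, whose other libraries were of cells given IL-33. There was no replicate, so the differences carry no error between cultures and no p-value. The labels used here do not say how many mice or cultures stand behind a library.

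IL-4 binds a receptor of the IL-4 receptor alpha chain (Il4ra) and the common gamma chain (Il2rg), whose JAK kinases phosphorylate the transcription factor STAT6. STAT6 dimers enter the nucleus and bind DNA sites made of TTC and GAA with a short spacer between them. The first transcripts in this pathway include its own brakes, SOCS1 and CIS (Cish). Later transcripts in mouse macrophages include arginase 1, the secreted protein RELM alpha (Retnla) and the mannose receptor (Mrc1), which mark the alternative activation state.

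A change is log2((IL-4 FPKM + 1) / (untreated FPKM + 1)) within the table of one time. On this scale low genes show smaller changes than their raw ratio would. The 4 h and 1 h tables were normalised separately, so a level at 4 h beside one at 1 h is a comparison across tables. The kinetic difference is the 4 h change minus the 1 h change. It equals the step of the IL-4 libraries between 1 h and 4 h minus the same step of the untreated libraries, so a positive value can come from either pair. A gene was called higher or lower, or said to have risen or fallen, where its change was at least 1 in size. A rise was early when it passed this rule at 1 h only, sustained when it passed at both times and late when it passed at 4 h only.

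The promoters of genes from the 3 classes are shown because members of a class passed the same size rule and the STAT spacings can be read in them. Every late and early promoter printed here holds a match, whereas most promoters of those classes do not, as the shares below show. Of the 38 named members of the classes of rise and fall, 28 had a promoter in the RefSeq table (GRCm38.p6), each a window of 250 bases before the start site and 50 after it. Positions count from 0 at the start site, with negative values upstream. Each line runs 5′ to 3′ on the gene's strand, with any match to the STAT6 spacing (TTC and GAA with 4 bases of any kind, N, between them) or to TTCNNNGAA (3 bases between, the spacing of other STAT dimers) in capitals. Both motifs read the same on either strand.
Retnla (late): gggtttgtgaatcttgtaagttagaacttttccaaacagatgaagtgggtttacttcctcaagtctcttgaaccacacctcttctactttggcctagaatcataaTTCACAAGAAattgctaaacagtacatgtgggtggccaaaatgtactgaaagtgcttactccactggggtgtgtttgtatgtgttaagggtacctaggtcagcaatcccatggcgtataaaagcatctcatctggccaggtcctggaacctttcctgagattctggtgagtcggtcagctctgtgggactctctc
Tcfec (late): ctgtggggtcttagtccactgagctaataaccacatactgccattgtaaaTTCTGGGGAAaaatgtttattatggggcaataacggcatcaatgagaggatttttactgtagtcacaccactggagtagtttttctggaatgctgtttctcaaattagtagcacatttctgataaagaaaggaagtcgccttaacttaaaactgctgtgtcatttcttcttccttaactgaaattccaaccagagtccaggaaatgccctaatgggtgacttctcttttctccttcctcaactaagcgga
Tmem26 (late): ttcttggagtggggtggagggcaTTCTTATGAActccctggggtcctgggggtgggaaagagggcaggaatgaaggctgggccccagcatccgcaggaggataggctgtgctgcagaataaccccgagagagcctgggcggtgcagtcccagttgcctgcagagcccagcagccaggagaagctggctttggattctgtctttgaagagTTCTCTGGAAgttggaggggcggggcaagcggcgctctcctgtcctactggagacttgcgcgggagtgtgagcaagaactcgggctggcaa
Gimap3 (late): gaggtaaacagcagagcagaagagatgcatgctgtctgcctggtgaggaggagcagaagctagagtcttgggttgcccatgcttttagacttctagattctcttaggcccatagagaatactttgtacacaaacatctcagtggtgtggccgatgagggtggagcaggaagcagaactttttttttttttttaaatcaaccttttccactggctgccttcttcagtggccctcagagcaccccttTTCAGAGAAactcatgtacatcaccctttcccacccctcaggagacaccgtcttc
Cish (early): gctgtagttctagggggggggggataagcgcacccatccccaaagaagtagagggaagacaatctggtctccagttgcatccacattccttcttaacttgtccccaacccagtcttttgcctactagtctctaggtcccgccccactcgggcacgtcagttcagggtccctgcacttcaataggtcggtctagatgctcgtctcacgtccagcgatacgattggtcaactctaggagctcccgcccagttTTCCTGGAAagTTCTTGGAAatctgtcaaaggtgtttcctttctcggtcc
Socs1 (sustained): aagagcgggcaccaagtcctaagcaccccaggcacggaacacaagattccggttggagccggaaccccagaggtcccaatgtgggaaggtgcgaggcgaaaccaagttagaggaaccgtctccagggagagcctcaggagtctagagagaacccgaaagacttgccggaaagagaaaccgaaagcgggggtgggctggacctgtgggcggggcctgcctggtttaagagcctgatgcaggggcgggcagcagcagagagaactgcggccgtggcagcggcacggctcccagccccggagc

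The window of Retnla lies at chr16:48842359-48842658 on the plus strand and holds the STAT6 spacing at position -145. Tcfec, which RefSeq lists as Tfec, lies at chr6:16898392-16898691 on the minus strand with that motif at -200. Tmem26 lies at chr10:68723496-68723795 on the plus strand with matches at -227 and -41. Gimap3 lies at chr6:48770802-48771101 on the minus strand with TTCNNNGAA at -5. Cish lies at chr9:107296409-107296708 on the plus strand with TTCNNNGAA at 0 and 11. The window of Socs1, at chr16:10785487-10785786 on the minus strand, holds neither spelling. The STAT6 spacing stood in the promoters of 3 of 20 late rises (15%), 0 of 4 early rises and 0 of 1 sustained rises, against 6.52% of the 8677 genes of the comparison with a promoter. TTCNNNGAA stood in 4 of 20 late rises (20%), 1 of 4 early rises (25%) and 0 of 1 sustained rises, against 8.39% of the same 8677 genes. A match is a string of letters in this window and shows no binding.

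The libraries had similar totals, from 724175 to 744894 FPKM, and 10343 to 10589 genes reached 1 FPKM. Relative depth, read from the steps of low values, was 0.918 in the IL-4 4 h library, 0.739 in the untreated 4 h library and 0.975 in the IL-4 1 h library, taking the untreated 1 h library as 1. All 18 eosinophil markers of the list were past the filter, among them Prg2 (major basic protein). Their summed level was 76203, 69094, 72445 and 72924 FPKM in the IL-4 4 h, untreated 4 h, IL-4 1 h and untreated 1 h libraries. Transcripts of other cells were present. Neutrophil genes, 15 of 16 past the filter, summed to 8732, 8771, 7771 and 7687 FPKM in the same order. Mast cell and basophil genes, 7 of 13 past the filter, summed to 341, 333, 359 and 350 FPKM. Heart muscle genes, 14 of 17 past the filter, summed to 62.5, 61.8, 204 and 251 FPKM in the same libraries, with Myl7 at 0 in all 4. Without Acta1, which carried most of the 4 h sums, they were 2.40, 3.29, 128 and 173 FPKM. Both 1 h libraries thus stood apart from both 4 h libraries, and the untreated 1 h library was the highest. Fibroblast genes, 7 of 12 past the filter, summed to 7.25, 6.403, 17.9 and 9.83 FPKM, highest in the IL-4 1 h library.

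The change of most genes differed little between the times. The kinetic difference had a median of 0.04 and an SD of 0.22 over the 10854 genes, and 96.7% lay within 0.5 of 0. It was positive in 61.7% of the genes. It was at least 1 in 30 genes (0.276%) and at or below -1 in 10 genes (0.0921%). At 4 h, 32 genes rose (0.295%) and 1 fell (0.00921%). At 1 h, 10 genes rose (0.0921%) and 2 fell (0.0184%). The rises divided into 7 early (0.0645%), 3 sustained (0.0276%) and 29 late (0.267%), so 29 of the 32 rises at 4 h had not passed the rule at 1 h. In bulk RNA, a larger share of cells of a type and more RNA per cell cannot be told apart.

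**Figure D1:**
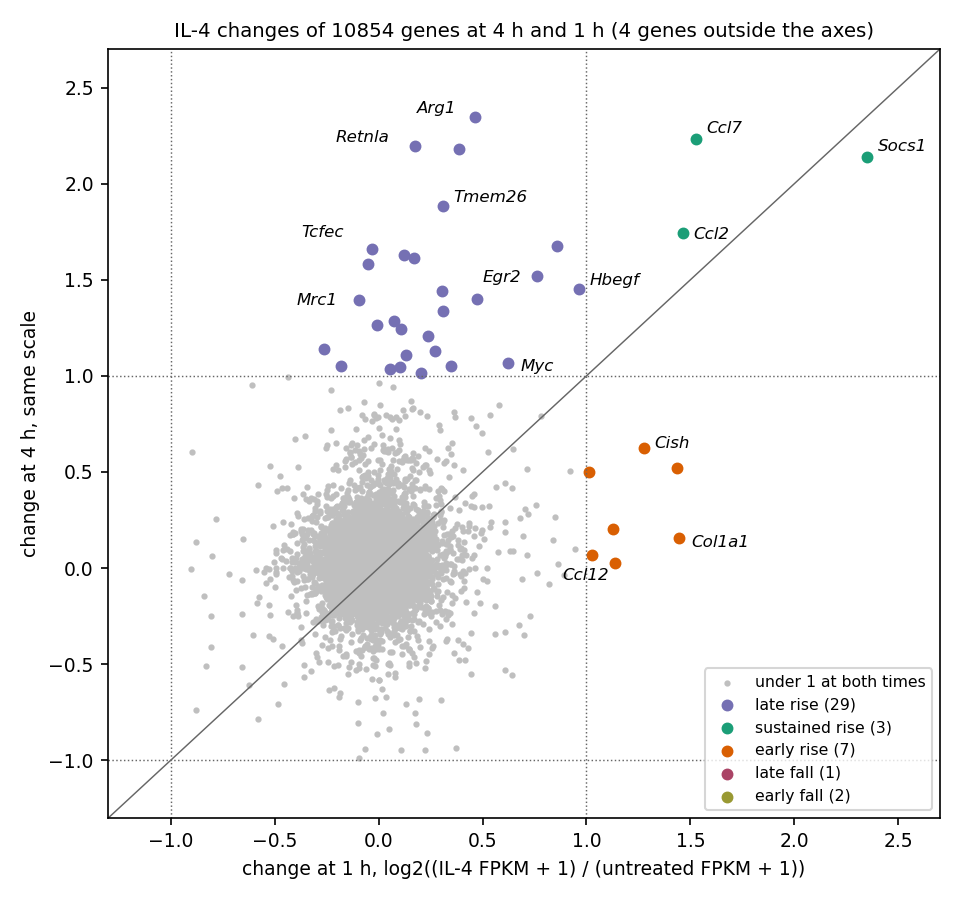
Change with IL-4 at 4 h (vertical) against the change at 1 h (horizontal) on the log2(FPKM + 1) scale, 1 point per gene, with dotted lines at the size rule of 1 and a solid line where both are equal. The late rises within the axes stand above the upper horizontal line and left of the right vertical line, and Socs1, Ccl7 and Ccl2 stand in the corner where both changes are at least 1. Of the 10854 genes, 4 lie outside the axes.

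The sustained rises were Socs1, Ccl7 and Ccl2. Socs1, an inhibitor of JAK kinases and a classical STAT target (mm9 chr16:10783901-10785629), had 21.5 FPKM with IL-4 and 4.11 FPKM untreated at 4 h. At 1 h it had 18.4 FPKM with IL-4 and 2.80 FPKM untreated. Both IL-4 libraries were above both untreated ones, and the changes of 2.14 at 4 h and 2.35 at 1 h gave a kinetic difference of -0.21. The reads behind these values numbered 423, 65, 384 and 60 in the same order. The 95% counting interval of the kinetic difference, computed from such reads without a pseudocount and covering counting error only, ran from -0.87 to 0.22 and held 0. A difference between the times was not detectable at this depth. Being free of the pseudocount, such an interval can lie away from the kinetic difference of a low gene.

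Ccl7 and Ccl2 encode monocyte chemoattractants and lie beside each other on chromosome 11 (mm9 chr11:81859213-81861025 and chr11:81849078-81850954). Ccl7 had 130.1 FPKM with IL-4 and 26.9 FPKM untreated at 4 h, and 60.7 FPKM with IL-4 and 20.4 FPKM untreated at 1 h. Its change was 2.23 at 4 h and 1.53 at 1 h. The kinetic difference of 0.71 was under the size rule, with a counting interval of 0.42 to 0.98. Ccl2 had 25.9 FPKM with IL-4 and 7.04 FPKM untreated at 4 h, and 17.6 FPKM with IL-4 and 5.75 FPKM untreated at 1 h. Its kinetic difference was 0.28 (counting interval -0.28 to 0.81). Both genes were above their untreated level at 1 h and at 4 h. In Ccl7 alone of the 3 sustained genes the counting interval of the kinetic difference left out 0. Ccl12, another gene of this cluster on chromosome 11, was an early rise, with 1.87 FPKM with IL-4 and 1.74 FPKM untreated at 4 h, and 2.20 FPKM with IL-4 and 0.572 FPKM untreated at 1 h. Its values rest on 12, 9, 15 and 4 reads, and the counting interval of its kinetic difference of -0.96, -3.86 to 0.18, held 0.

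Cish was the early rise with the highest level. It encodes CIS, a SOCS family protein that damps cytokine receptor signalling through STAT5. Cish had 18.7 FPKM with IL-4 and 11.8 FPKM untreated at 4 h, and 25.7 FPKM with IL-4 and 10.0 FPKM untreated at 1 h. The IL-4 level at 4 h was below that at 1 h while the untreated level was not, and the change was 0.62 at 4 h and 1.28 at 1 h (kinetic difference -0.65, under the size rule). Reads could not be recovered for Cish. The authors' deposited table marks Cish as significant at both times, with log2 fold changes of 0.67 at 4 h and 1.36 at 1 h. That deposited table is a list of significantly regulated genes, so its marks are not a separate check. It holds 17 of the named late rises, all marked at 4 h and 7 also at 1 h (Dab2, Egr2, Il6st, Lipg, Myc, Sdc4 and Tmem26). Other named late rises, among them Mrc1, Mgl2 and Hbegf, were not found in it.

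Among the 7 early rises 3 were genes of the fibroblast list. They were 3 of the 7 members of that list past the filter, beside 0.0921% of all genes that rose at 1 h. Col1a1, a chain of type I collagen, had 0.494 FPKM with IL-4 and 0.343 FPKM untreated at 4 h, and 2.93 FPKM with IL-4 and 0.443 FPKM untreated at 1 h. Its kinetic difference was -1.29 (counting interval -3.06 to -1.34). The other collagen chain Col1a2 had kinetic difference -0.92 and the matrix protein gene Sparc -1.11. All 3 had their highest level of the 4 libraries in IL-4 1 h. The sum of the fibroblast genes was also highest there, but it includes these 3 genes and is not separate from them. In the IL-33 tables, Col1a1 had 1.58 FPKM with IL-33 and 0.419 FPKM untreated at 1 h, Col1a2 2.33 FPKM with IL-33 and 0.871 FPKM untreated, and Sparc 2.36 FPKM with IL-33 and 1.24 FPKM untreated, so levels above the untreated library were not confined to IL-4. Other members of the list went both ways at 1 h. Col3a1 had 1.61 FPKM with IL-4 and 0.407 FPKM untreated, and Dcn had 0.856 FPKM with IL-4 and 1.10 FPKM untreated. The median 1 h change of the 7 list members past the filter, Col1a1, Col1a2 and Sparc included, was 0.89. The part of fibroblast RNA in the rises of Col1a1, Col1a2 and Sparc was not tested. The other 4 early rises were Cish, Ccl12, Hist2h4 and 1700120K04Rik. Hist2h4 has near-identical copies, so its value of 1.70 FPKM with IL-4, where the untreated 1 h library listed it at 0, is uncertain.

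**Figure D2:**
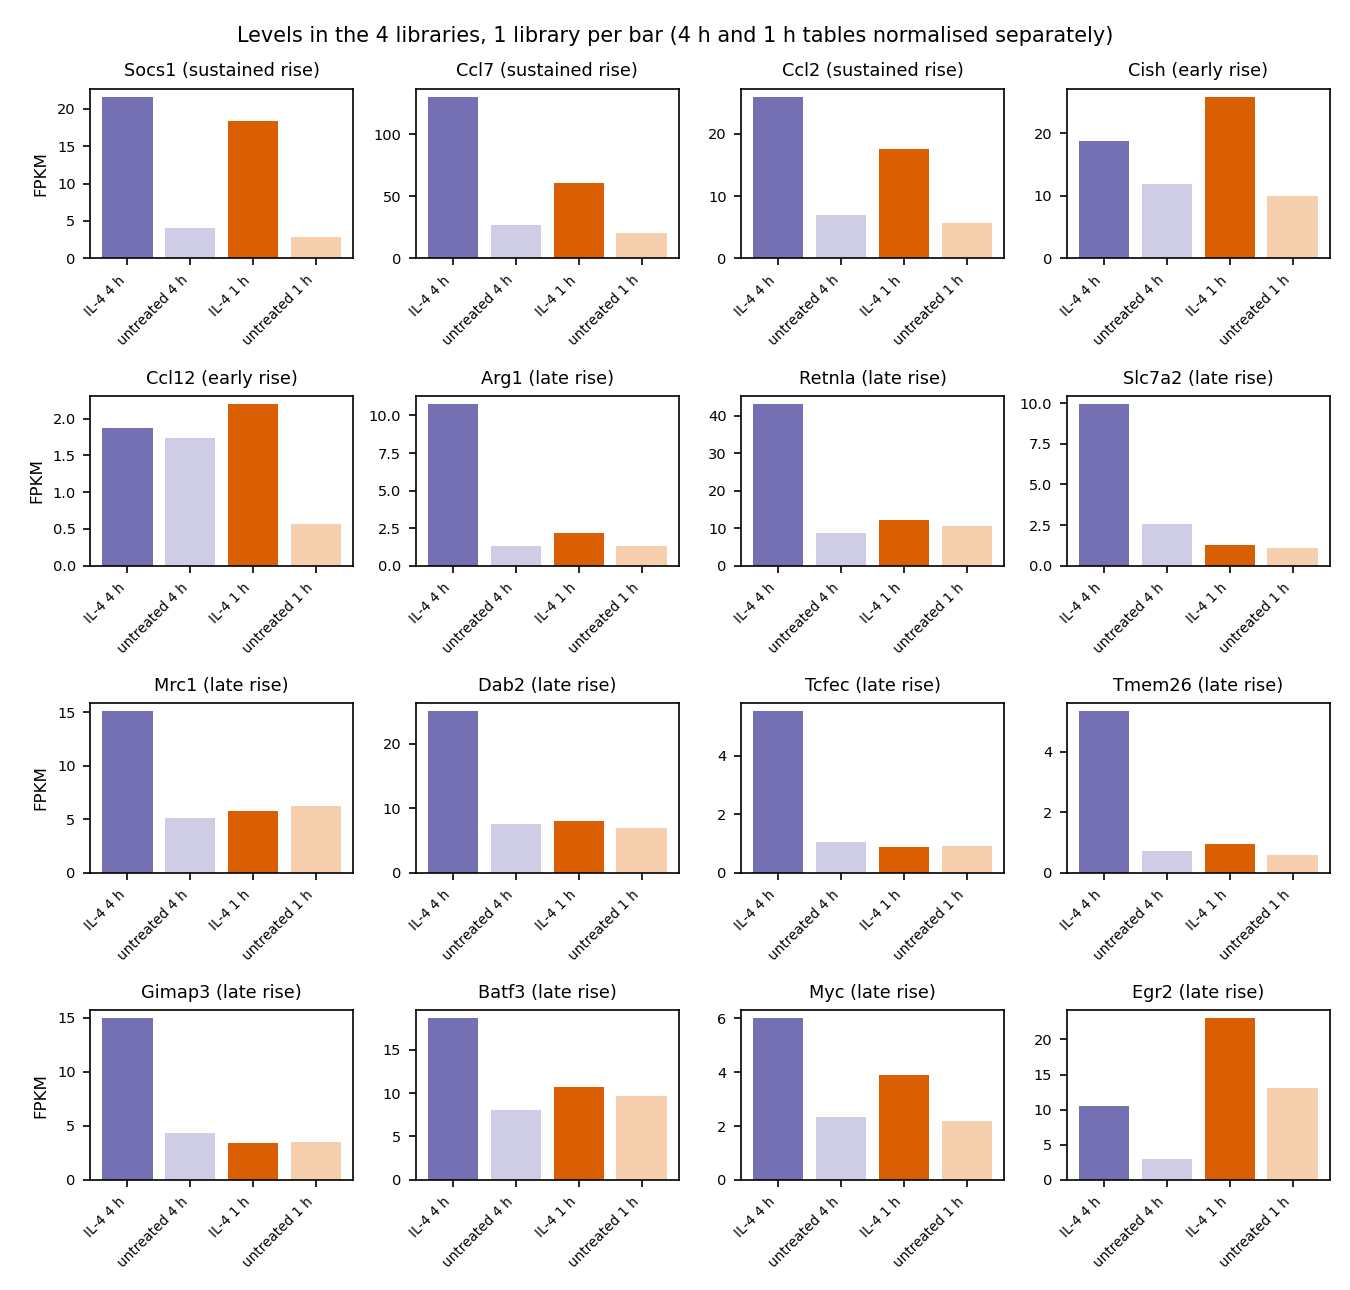
Levels of 16 genes in FPKM in the IL-4 4 h, untreated 4 h, IL-4 1 h and untreated 1 h libraries, 1 library per bar with no error bar, each panel from 0 on its own scale. Socs1, Ccl7 and Ccl2 are high in both IL-4 libraries, Arg1, Retnla, Mrc1, Tcfec, Tmem26 and Gimap3 are high in the IL-4 4 h library only, and Egr2 is highest at 1 h.

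The late rises held some genes of alternative activation. Others of that state stayed under the rule at 4 h, such as the chitinase-like gene Chi3l3, which had 49.3 FPKM with IL-4 and 28.1 FPKM untreated at 4 h, and 24.0 FPKM with IL-4 and 20.3 FPKM untreated at 1 h (4 h change 0.79). Arg1, which cleaves arginine to ornithine and urea (mm9 chr10:24635012-24647276), had 10.8 FPKM with IL-4 and 1.31 FPKM untreated at 4 h, and 2.18 FPKM with IL-4 and 1.30 FPKM untreated at 1 h. The IL-4 4 h library stood far above the other 3, and the IL-4 1 h library lay above both untreated ones. The change was 2.35 at 4 h and 0.46 at 1 h, under the size rule at 1 h although the counting interval of that change (without a pseudocount, 0.13 to 1.35) left out 0, and the kinetic difference was 1.88 (counting interval 1.46 to 3.14, from 265, 26, 57 and 35 reads). Slc7a2, the cationic amino acid transporter that brings arginine into the cell, had 9.95 FPKM with IL-4 and 2.53 FPKM untreated at 4 h, and 1.28 FPKM with IL-4 and 1.10 FPKM untreated at 1 h. Its kinetic difference was 1.51, and the untreated level was also above that of 1 h, by a step of 0.75. These 2 were the genes at or above 1 among the 13 members of the arginine and polyamine list past the filter, beside 0.276% over all genes. The list's median kinetic difference was 0.06, beside 0.04 over all genes. It was drawn up with earlier results of these libraries known, so its counts cannot serve as support for a late response. Srm, which makes spermidine, had a kinetic difference of 0.70, and Arg2, the mitochondrial arginase, -0.26.

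Retnla had the largest kinetic difference among named genes without near-identical copies. This secreted protein gene (mm9 chr16:48842664-48844574) had 43.1 FPKM with IL-4 and 8.64 FPKM untreated at 4 h, and 12.2 FPKM with IL-4 and 10.7 FPKM untreated at 1 h. The 3 other libraries lay together and the IL-4 4 h library stood apart. The change was 2.20 at 4 h and 0.17 at 1 h, and the kinetic difference 2.02 (counting interval 1.54 to 2.72). The promoter printed above is the one that carries the STAT6 spacing at -145.

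Genes of glycan receptors and of receptor uptake were also late rises. The mannose receptor gene Mrc1 had 15.1 FPKM with IL-4 and 5.12 FPKM untreated at 4 h, and 5.74 FPKM with IL-4 and 6.19 FPKM untreated at 1 h. Its kinetic difference was 1.49, and the counting interval of 1.44 to 1.89 rests on 1492 reads in the IL-4 4 h library. Mrc1 is also expressed by macrophages. Over the 18 macrophage and monocyte markers past the filter the median kinetic difference was -0.07. Mrc1 was the 1 member at or above 1, beside 0.276% over all genes. The summed level of the markers was 2980 FPKM with IL-4 and 3133 FPKM untreated at 4 h, and 4445 FPKM with IL-4 and 4431 FPKM untreated at 1 h. Dab2, an adaptor for receptor uptake, had 25.0 FPKM with IL-4 and 7.51 FPKM untreated at 4 h, and 7.95 FPKM with IL-4 and 6.97 FPKM untreated at 1 h. The galactose-type lectin gene Mgl2 had 2.45 FPKM with IL-4 and 0.434 FPKM untreated at 4 h, and 0.704 FPKM with IL-4 and 0.711 FPKM untreated at 1 h. The kinetic differences were 1.44 for Dab2 and 1.27 for Mgl2. Mrc1, Dab2 and Mgl2 were the 3 genes at or above 1 among 15 genes of the scavenger and lectin receptor list, beside 0.276% over all genes. The list includes Dab2 although it is an adaptor. It was drawn up with earlier results of these libraries known, so its counts cannot serve as support for a late response. The median of this list was -0.02. The list held a gene of the opposite sign, Lrp1, a lipoprotein receptor, with 1.58 FPKM with IL-4 and 3.35 FPKM untreated at 4 h, and 1.79 FPKM with IL-4 and 1.76 FPKM untreated at 1 h (kinetic difference -0.77, under the size rule).

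Transcription factor genes were another group. Tcfec, of the MITF and TFE family, had 5.51 FPKM with IL-4 and 1.06 FPKM untreated at 4 h, and 0.864 FPKM with IL-4 and 0.903 FPKM untreated at 1 h. Its change was 1.66 at 4 h and -0.03 at 1 h (kinetic difference 1.69, counting interval 1.49 to 3.39). Batf3, of the AP-1 family, had 18.6 FPKM with IL-4 and 8.09 FPKM untreated at 4 h, and 10.7 FPKM with IL-4 and 9.71 FPKM untreated at 1 h. Its kinetic difference of 0.98 lay just under the size rule. Irf4, which acts beside STAT6 in macrophages, had kinetic difference 0.81 at levels of 1.63 FPKM with IL-4 and 0.301 FPKM untreated at 4 h.

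Egr2 and Myc were among 5 late rises whose change at 1 h was at least 0.5, though under the rule. Egr2, a zinc finger immediate early gene, had 10.5 FPKM with IL-4 and 3.00 FPKM untreated at 4 h, and 23.0 FPKM with IL-4 and 13.1 FPKM untreated at 1 h. Both 1 h libraries were above both 4 h libraries. The change was 1.52 at 4 h and 0.76 at 1 h, so the gene is classed as late although its level with IL-4 was higher at 1 h. From 1 h to 4 h the step was -1.06 in IL-4 libraries and -1.82 in untreated libraries. Myc had 6.001 FPKM with IL-4 and 2.34 FPKM untreated at 4 h, and 3.90 FPKM with IL-4 and 2.18 FPKM untreated at 1 h. Its changes were 1.07 at 4 h and 0.62 at 1 h. The list of transcription factors of the later response had 16 genes past the filter. Of these, 5 rose at 4 h (Egr2, Batf3, Irf4, Tcfec and Myc) and 0 at 1 h, beside 0.295% and 0.0921% over all genes. A positive kinetic difference was found in 13, beside 61.7% over all genes, with a median of 0.28. The list was drawn up with earlier results of these libraries known, so its counts cannot serve as support for a late response. Over the 33 immediate early genes past the filter, the median kinetic difference was 0.02. Of them 2 rose at 4 h (Egr2 and Myc), beside 0.295% over all genes.

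Other late rises belong to several roles. Gimap3, a GTPase of the GIMAP family first known in lymphocytes, had 14.95 FPKM with IL-4 and 4.33 FPKM untreated at 4 h, and 3.38 FPKM with IL-4 and 3.54 FPKM untreated at 1 h (kinetic difference 1.63, counting interval 1.42 to 2.29). All 8 members of the family were past the filter with a positive kinetic difference (61.7% over all genes). Gimap3 was the 1 member at or above 1, beside 0.276% over all genes, and the median was 0.32. Gimap5 had 0.67 and Gimap7 0.56, both under the size rule. The lymphoid marker list, 6 of 13 past the filter, had a median of -0.09. Tmem26, a membrane protein gene, had 5.34 FPKM with IL-4 and 0.715 FPKM untreated at 4 h, and 0.953 FPKM with IL-4 and 0.577 FPKM untreated at 1 h (kinetic difference 1.58, counting interval 1.56 to 2.80). The IL-4 4 h library was the single high one for both Gimap3 and Tmem26.

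Growth factor and signalling genes among the late rises had smaller kinetic differences. Hbegf, an EGF receptor ligand, had 2.38 FPKM with IL-4 and 0.236 FPKM untreated at 4 h, and 1.59 FPKM with IL-4 and 0.328 FPKM untreated at 1 h. Its 1 h change of 0.96 lay just under the rule, and the counting interval of its kinetic difference of 0.49, -0.26 to 2.36, held 0. Pgf, placental growth factor, had kinetic difference 0.94 at 1.55 FPKM with IL-4 and 0.235 FPKM untreated at 4 h. Il6st, the shared gp130 chain of IL-6 family receptors, had 6.52 FPKM with IL-4 and 2.63 FPKM untreated at 4 h, and 2.32 FPKM with IL-4 and 1.61 FPKM untreated at 1 h (kinetic difference 0.71). The heparan sulfate proteoglycan gene Sdc4 had 26.1 FPKM with IL-4 and 9.27 FPKM untreated at 4 h, with kinetic difference 0.93. Pim2, a survival kinase gene, had 0.86. None of these 5 reached a kinetic difference of 1, although each passed the rule at 4 h.

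Of the 29 late rises, 17 had a kinetic difference of at least 1 and 12 did not. The level with IL-4 at 4 h was above that at 1 h by a step of at least 0.5 in 19. In 9, the untreated level at 4 h was below that at 1 h by a step of at least 0.5, and in 3 the IL-4 level itself was below that at 1 h. Serpina3g, a serine protease inhibitor gene, had 8.19 FPKM with IL-4 and 2.38 FPKM untreated at 4 h, and 6.71 FPKM with IL-4 and 5.24 FPKM untreated at 1 h. Its kinetic difference of 1.14 was made of an IL-4 step of 0.25 and an untreated step of -0.88. Lipg, endothelial lipase, had 6.18 FPKM with IL-4 and 1.84 FPKM untreated at 4 h, and 4.41 FPKM with IL-4 and 3.36 FPKM untreated at 1 h (steps 0.41 and -0.62). Gzma, a granule protease of cytotoxic lymphocytes, had steps of 0.32 with IL-4 and -0.65 untreated. In these 3 the untreated libraries moved more between the times than the IL-4 libraries did. The median step was 0.14 with IL-4 and 0.10 untreated. Tgtp1, an interferon-induced GTPase gene, had 3.54 FPKM with IL-4 and 0.000209 FPKM untreated at 4 h, and 3.51 FPKM with IL-4 and 2.45 FPKM untreated at 1 h, so its kinetic difference of 1.80 turns on 1 untreated library. With the mean of both untreated libraries as the control at both times, the kinetic difference is the IL-4 step itself, so Serpina3g, Lipg and Tgtp1 lie under the rule by construction, and late rises numbered 17.

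**Figure D3:**
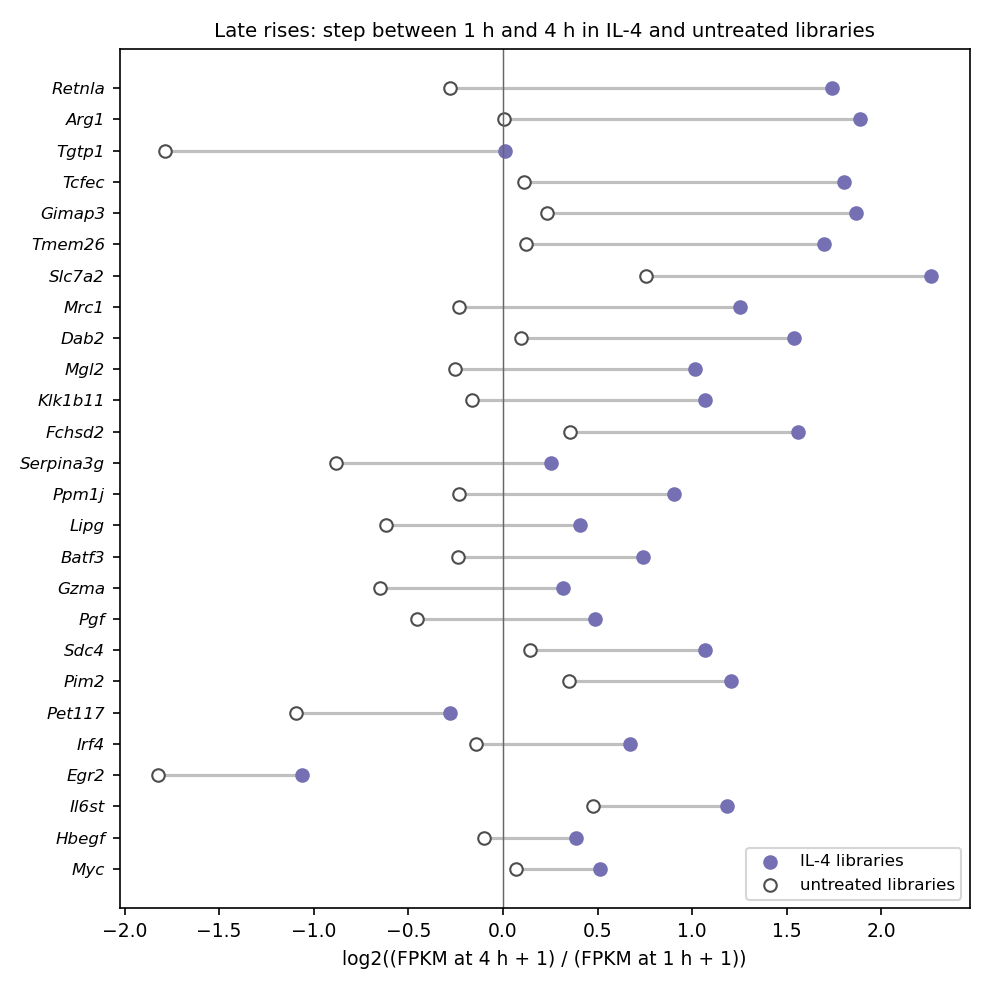
Step between 1 h and 4 h, log2((FPKM at 4 h + 1) / (FPKM at 1 h + 1)), of the 26 late rises that are not predicted genes, with filled points for the IL-4 libraries and open points for the untreated libraries, ordered by kinetic difference, which is the length of the grey line. For Retnla, Arg1 and Tcfec the IL-4 point lies far to the right and the untreated point near 0, and for Egr2 and Pet117 both lie left of 0.

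Beyond the late rises, the 30 genes with a kinetic difference of at least 1 included 11 that passed the rule at neither time and 2 early falls, Rps27 and Hist1h4m. By the rule itself, the change of all 11 had to be positive but under 1 at 4 h, and negative at 1 h. Ccl17, a chemokine of type 2 responses, had 1.33 FPKM with IL-4 and 0.207 FPKM untreated at 4 h, and 0.157 FPKM with IL-4 and 0.765 FPKM untreated at 1 h. The kinetic difference of 1.56 rests on 8, 1, 1 and 5 reads, with a counting interval of 0.66 to 9.28. Csrp3, a muscle LIM protein gene, had 1.64 FPKM with IL-4 and 1.21 FPKM untreated at 4 h, and 2.81 FPKM with IL-4 and 5.54 FPKM untreated at 1 h (kinetic difference 1.04). Csrp3 was highest in the untreated 1 h library, as were the summed heart muscle genes, whose median kinetic difference was 0.40 over 14 genes. The part of heart RNA in these values was not tested. With 1 control for both times, the kinetic difference of Csrp3 is its IL-4 step, -0.53.

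The values of Rps27 and Rpl26, ribosomal protein genes with many near-identical copies, are uncertain. Rps27 was an early fall, with 5.70 FPKM with IL-4 and 7.01 FPKM untreated at 4 h, and 4.94 FPKM with IL-4 and 174 FPKM untreated at 1 h. Of these 4 libraries the untreated 1 h one alone was high, and the IL-33 1 h library, in its own table, had 73.7 FPKM. Rpl26 was the 1 late fall, with a value of 0 FPKM in the IL-4 library and 12.9 FPKM untreated at 4 h, beside 4.87 FPKM with IL-4 and 2.37 FPKM untreated at 1 h. Similar copies made up 6 of the 30 genes at or above 1 and 4 of the 10 at or below -1. The share of such copies over all genes is not given here, so these counts are not read as an excess. With similar copies left out, an alternative chosen after seeing the data, 0 genes fell at either time, and 24 and 6 genes passed the kinetic rule. Among the genes at or below -1 without copies, Pmp22, a membrane protein gene of myelin, had 2.88 FPKM with IL-4 and 6.47 FPKM untreated at 4 h, and 4.75 FPKM with IL-4 and 4.33 FPKM untreated at 1 h (kinetic difference -1.05).

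Large kinetic differences were more frequent at low levels. Among 2767 genes whose highest level was 1 to 5 FPKM, 14 were at or above 1 and 6 at or below -1, and the central 95% of genes lay between -0.51 and 0.65. Among 1002 genes of 100 FPKM and over, 1 was at or above 1 and 1 at or below -1, and the central 95% lay between -0.15 and 0.24. Reads were recovered for 13 of the 30 genes at or above 1 and for 6 of the 10 genes at or below -1. With a pseudocount of 5 in place of 1, which damps low values further, 8 of the 25 named genes past the kinetic rule still passed it: Rps27, Retnla, Arg1, Gimap3, Mrc1, Dab2, Rpl26 and Lars2. Of these, the values of Rps27 and Rpl26 are uncertain, as said above. Lars2 had 563 FPKM with IL-4 and 717 FPKM untreated at 4 h, and 624 FPKM with IL-4 and 384 FPKM untreated at 1 h. Its step was -0.15 with IL-4 and 0.90 untreated, and it was under the rule against the mean of both untreated libraries. Just inside the kinetic rule stood Tmsb15b2 at 1.01 and just outside Cox6a2 and Batf3, both at 0.98. At the other end Lars2 stood inside at -1.05 and Cmtm2a outside at -0.99.

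**Figure D4:**
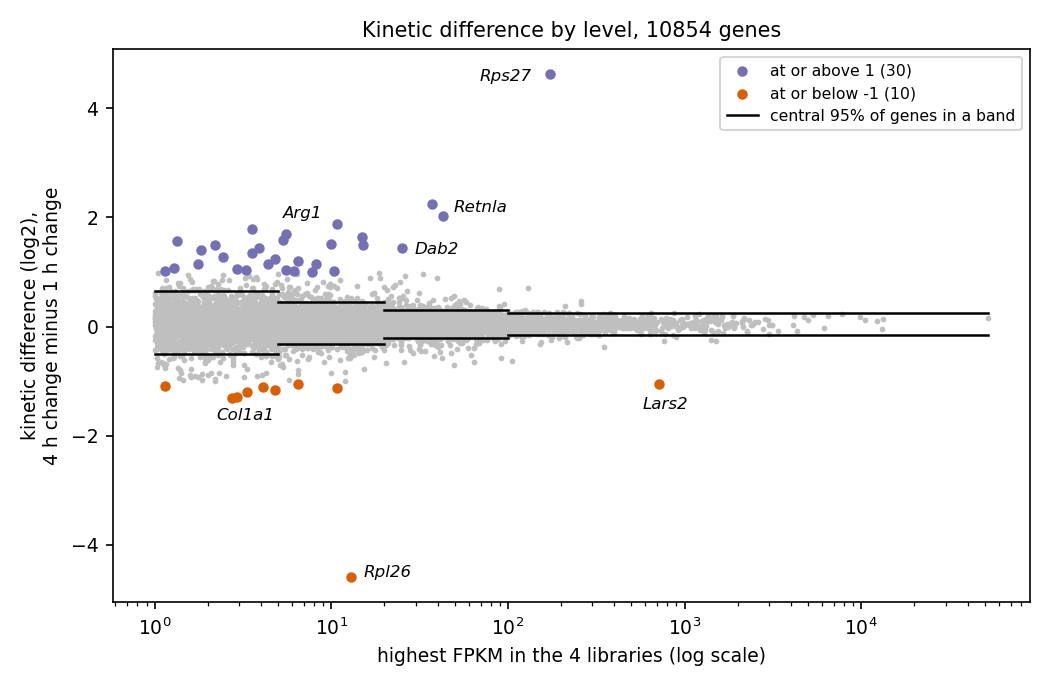
Kinetic difference of 10854 genes against the highest FPKM of the gene in the 4 libraries (log axis), with black lines around the central 95% of genes in each level band. The band narrows with level, and Retnla, Arg1 and Dab2 stand above it, while Rps27 and Rpl26 are the highest and lowest points.

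Over the 37 of 45 IL-4 and STAT6 response genes past the filter, 12 rose at 4 h and 4 at 1 h, beside 0.295% and 0.0921% over all genes. In this list 6 genes had a kinetic difference of at least 1 (Retnla, Arg1, Ccl17, Slc7a2, Mrc1 and Mgl2) and 0 were at or below -1, beside 0.276% and 0.0921% over all genes. The median kinetic difference was 0.36, beside 0.04 over all genes, and 29 of 37 were positive, beside 61.7%. The median change was 0.64 at 4 h and 0.12 at 1 h. Members such as Alox15 did not follow: this lipoxygenase gene had 995 FPKM with IL-4 and 977 FPKM untreated at 4 h, and 1123 FPKM with IL-4 and 1164 FPKM untreated at 1 h. The list was drawn up from textbook STAT6 targets with earlier results of these libraries known. Its counts therefore cannot serve as support for a late response.

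No receptor or JAK-STAT6 gene passed the rule. Over 19 genes past the filter, 0 passed the rule at either time and the median kinetic difference was 0.06. Over all genes 0.295% rose at 4 h and 0.0921% at 1 h, so this count of 0 is not read as a result about the list. Il4ra had 9.52 FPKM with IL-4 and 8.82 FPKM untreated at 4 h, and 8.17 FPKM with IL-4 and 8.11 FPKM untreated at 1 h. Stat6 had 117 FPKM with IL-4 and 119 FPKM untreated at 4 h, and 119 FPKM with IL-4 and 125 FPKM untreated at 1 h. Of the 18 feedback genes, 2 rose at 4 h (Socs1 and Pim2) and 2 at 1 h (Socs1 and Cish), beside 0.295% and 0.0921% over all genes. Their median kinetic difference was -0.02. Pim3, another kinase gene of this list, was highest in the IL-4 1 h library, as was Cish. Pim3 had 10.2 FPKM with IL-4 and 7.94 FPKM untreated at 4 h, and 17.7 FPKM with IL-4 and 10.1 FPKM untreated at 1 h (changes 0.33 and 0.76, both under the rule). Unlike that of Cish, its untreated level was lower at 4 h than at 1 h.

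**Figure D5:**
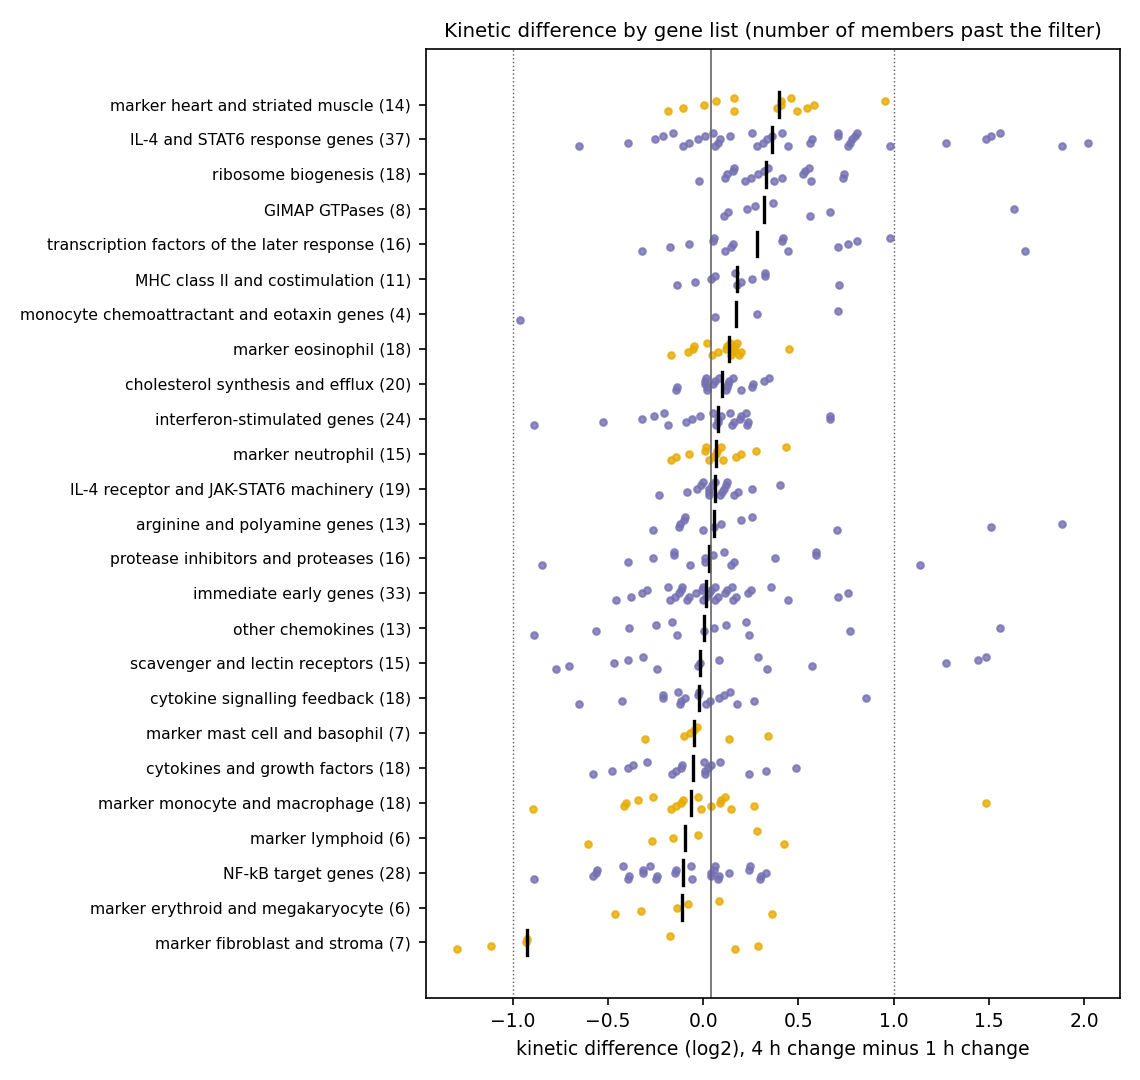
Kinetic difference of the members of 25 gene lists, 1 point per gene past the filter (purple for pathways, yellow for cell markers), with a black bar at the list's median and a grey line at the median of all genes. The ribosome biogenesis, IL-4 response and GIMAP lists have medians of 0.33, 0.36 and 0.32, and the fibroblast list lies lowest at -0.92.

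Cytokine genes did not pass the rule at either time, other than Hbegf at 4 h, among 18 members past the filter. Over all genes 0.295% rose at 4 h and 0.0921% at 1 h. The Il4 gene had 82.0 FPKM with IL-4 and 87.4 FPKM untreated at 4 h, and 81.2 FPKM with IL-4 and 80.3 FPKM untreated at 1 h. Mast cell and basophil transcripts were present too, so the cells that held the Il4 RNA cannot be told from bulk RNA. Il5 was listed at 0 in all 4 libraries. Il6 had 6.44 FPKM with IL-4 and 5.01 FPKM untreated at 4 h, and 13.2 FPKM with IL-4 and 7.73 FPKM untreated at 1 h. Il1b, an inflammatory cytokine gene, had 5.20 FPKM with IL-4 and 6.29 FPKM untreated at 4 h, and 42.5 FPKM with IL-4 and 33.3 FPKM untreated at 1 h. Both genes had larger levels in the 1 h libraries than in the 4 h libraries, with or without IL-4. Tnf had a kinetic difference of 0.04 and Il13 of 0.03. The 28 NF-kB target genes had a median kinetic difference of -0.10, with 0 at or beyond 1 in either direction. Over all genes 0.276% were at or above 1 and 0.0921% at or below -1.

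The series also gave IL-33, an IL-1 family alarmin, for the same times and against the same untreated libraries, so the changes share their controls and are set side by side only. Retnla changed by 2.20 with IL-4 at 4 h and by 0.65 with IL-33, and Mgl2 by 1.27 with IL-4 and 0.31 with IL-33. Arg1 changed by 2.35 with IL-4 and 2.22 with IL-33, and Tcfec by 1.66 with IL-4 and 1.76 with IL-33. Pim2 changed by 1.13 with IL-4 and 4.96 with IL-33, and Serpina3g by 1.44 with IL-4 and 3.15 with IL-33. At 1 h Socs1 changed by 2.35 with IL-4 and 0.60 with IL-33, and Cish by 1.28 with IL-4 and 3.29 with IL-33. At 4 h Socs1 changed by 2.14 with IL-4 and 2.00 with IL-33. Ccl7 changed by 2.23 with IL-4 and 2.19 with IL-33 at 4 h, and Ccl2 by 1.74 with IL-4 and 2.09 with IL-33. Of the 29 late rises, 18 also changed by at least 1 with IL-33 at 4 h. The share over all genes is not given here, so this count is not read as an excess.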

How the data were processed

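RNA-seq libraries of 6 groups, 1 each, were made by the authors with TopHat 1.4.1, Cuffdiff 1.2.1 and build mm9, as the submitters' processing notes list. The authors deposited FPKM per RefSeq transcript (28702 transcripts) in tables of 1 treated and 1 untreated library, each normalised separately, and a list with their log2 fold changes and significance marks. The RefSeq release is not given in the sources used here.

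Transcripts were summed per gene symbol, with a pseudocount of 1, an FPKM minimum of 1 in any of 4 libraries and a size rule of 1 (log2). Of 11025 genes past the minimum, 171 small RNA genes were left out. Of the members, 2387 combined several transcripts and 52 had more than 1 locus. Whole reads were recovered for 5071 of 8467 single-transcript members (59.9%), since FPKM ratios of low genes are ratios of whole numbers (tolerance 0.03). As a check, FPKM per read times length lay within 10% of its median in 72.3% of 4372 recovered transcripts of known length. For the others the recovered reads, and the counting intervals built on them, may be off. Absolute library depth is not given by the files. Relative to the untreated library of its time, the depth was 1.24 for IL-4 at 4 h and 0.975 for IL-4 at 1 h. Counting intervals are 95% and cover counting error only.

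With 1 library per group no test was run, and the spread between cultures is unknown. Genes named were those past the rule at 1 h, the 20 largest rises and 5 largest falls at 4 h, the 15 largest and 10 smallest kinetic differences with at least 5 FPKM in 1 library, a set always named and up to 4 members per list. A few other genes of the lists are given as examples, chosen after their values were seen. Predicted genes were passed over. The members and the 25 lists were chosen with earlier results of these data known. Counts of list members beside the share over all genes therefore serve as no support for a kind of response. Promoter sequences are from RefSeq (GRCm38.p6), and mm9 positions are from the authors' tables. The steps were tested on simulated data. Python 3.11.15, pandas 2.3.3, numpy 2.4.6, scipy 1.17.1 and matplotlib 3.10.9 were used.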

Additional observations from a re-analysis of the deposited data

How the results depend on the processing

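Counts below are in the order kinetic difference at or above 1, kinetic difference at or below -1, 4 h rises, 4 h falls, 1 h rises, 1 h falls, early rises, sustained rises and late rises, which were 30, 10, 32, 1, 10, 2, 7, 3 and 29 as reported. With a pseudocount of 0.1 they were 114, 61, 85, 32, 30, 23, 20, 8 and 74, and with a pseudocount of 5 they were 6, 2, 9, 1, 4, 1, 1, 3 and 6. At a minimum of 5 FPKM they were 16, 4, 23, 1, 4, 1, 1, 3 and 20. With a size rule of 1.5-fold they were 153, 75, 119, 30, 46, 21, 34, 11 and 106. Single transcripts in place of genes gave 448, 381, 296, 237, 190, 223, 141, 26 and 237. Against the mean of both untreated libraries they were 99, 116, 23, 49, 25, 6, 10, 6 and 17. With small RNA genes kept they were 87, 69, 70, 38, 50, 38, 33, 12 and 50. Median centring gave 25, 15, 31, 2, 10, 2, 7, 3 and 28, and no filter gave 32, 12, 32, 1, 10, 2, 7, 3 and 29. With similar copies left out, added after seeing the data, they were 24, 6, 29, 0, 8, 0, 5, 3 and 26. For counts that moved, the cause was not tested, other than that fewer or more genes entered under the filters, the small RNA genes and the copies, and that a shared control removes the untreated step.

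Of 25 named genes past the kinetic rule, 25 stayed past it with a pseudocount of 0.1 and 8 with a pseudocount of 5, 22 with median centring and 15 against the mean of both untreated libraries, where the kinetic difference is the IL-4 step alone, Csrp3 turned to -0.53 and 9 were under the rule. The median of the IL-4 response list ranged between 0.26 and 0.53 over its alternatives. Leaving out a library was not possible with 1 library per group. No paired analysis was possible because each group holds 1 library and the groups share no more than 1 replicate number. The reads behind a level depend on transcript length as well as FPKM, and where the counting interval held 0 a difference between the times was not detectable at this depth.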

Other observations

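Ribosome biogenesis genes had a positive kinetic difference in 17 of 18 members past the filter (61.7% over all genes), with 0 at or above 1 and a median of 0.33, beside 0.04 over all genes. Rrs1, an assembly factor of the large ribosomal subunit, had 9.61 FPKM with IL-4 and 5.98 FPKM untreated at 4 h, and 4.19 FPKM with IL-4 and 4.70 FPKM untreated at 1 h (kinetic difference 0.74). Ppan had 0.74, Nop2 0.57 and Nolc1 0.56. The list's median change was 0.24 at 4 h and -0.02 at 1 h.

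Of 11 genes of MHC class II and costimulation, 9 had a positive kinetic difference, beside 61.7% over all genes, with a median of 0.18 and 0 at or beyond 1. H2-DMb2, a peptide-loading chain, had 5.24 FPKM with IL-4 and 3.86 FPKM untreated at 4 h, and 2.34 FPKM with IL-4 and 3.26 FPKM untreated at 1 h. Of 20 genes of cholesterol synthesis and efflux, 18 were positive, beside the same 61.7%, with a median of 0.10 and 0 at or beyond 1. A member that differed more between times than with IL-4 was Fdft1, squalene synthase, with 36.5 FPKM with IL-4 and 34.1 FPKM untreated at 4 h, and 11.3 FPKM with IL-4 and 13.6 FPKM untreated at 1 h. The list's median reached 0.63 against the mean of both untreated libraries.

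The protease and inhibitor list (16 genes) had a median of 0.03, and Serpina3g was the 1 member at or above 1 (0.276% over all genes). Timp1 of this list, an inhibitor of matrix metalloproteases, had 1.58 FPKM with IL-4 and 1.41 FPKM untreated at 4 h, and 4.27 FPKM with IL-4 and 1.74 FPKM untreated at 1 h. It was highest in the IL-4 1 h library, as were Col1a1, Col1a2 and Sparc. Interferon-stimulated genes (24) had a median of 0.08 and 0 past the kinetic rule, and the other chemokines (13) a median of 0.01 and 1 past it, Ccl17. The monocyte chemoattractant and eotaxin genes (4) had a median of 0.17. Medians of the remaining marker lists were 0.13 for eosinophil, -0.05 for mast cell and basophil, 0.07 for neutrophil and -0.11 for erythroid and megakaryocyte genes, with 0 members past the kinetic rule. Over all genes 0.276% were at or above 1 and 0.0921% at or below -1. Counts of 0 in the lists of this section are therefore not read as results about them. The cytokine list had a median of -0.05.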
